A study of Rattus norvegicus with 8 samples.

Results

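The part of the transcriptome described here is the response to an ischemic condition when eugenol was present throughout. Its members are all 7526 genes that the authors listed in their table of ischemia with eugenol against normoxia with eugenol, of 9025 genes listed in at least 1 of 5 deposited tables. That table holds only genes with an unadjusted p under 0.05, so a gene that is not listed in it has no value here. The cells were ventricular cardiomyocytes isolated from Sprague Dawley rats of 2 to 3 days of age. The ischemia eugenol group was kept for 24 h in the ischemic condition, with 1% oxygen and 5% CO2, together with 10 µM eugenol. The normoxia eugenol group received the same 10 µM eugenol for 24 h in normoxia, so eugenol was shared by both groups and is not what separates them. Each group had 2 RNA-seq libraries. Matching groups with the solvent DMSO, ischemia DMSO and normoxia DMSO, with 2 libraries each, enter only the closing comparison. Below, ischemia and normoxia mean the eugenol groups unless DMSO is named. The cells are primary cells of newborn rats in culture, and the labels give low oxygen with CO2 but no other part of the ischemic condition, so oxygen cannot be told apart from the rest of it.

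Cells sense oxygen through prolyl hydroxylases that mark the alpha subunits of hypoxia-inducible factor (HIF) for destruction. When oxygen is scarce the subunits are kept, pair with ARNT and switch on genes of glucose uptake, glycolysis, vessel growth and mitochondrial turnover. The neonatal ventricular cardiomyocyte is a beating cell that is rich in sarcomeres and mitochondria, can still divide for a short time after birth, and depends on oxidative metabolism more and more as it matures. Eugenol is a phenol of clove oil with antioxidant activity, and the factor NRF2 drives many of the genes by which cells handle oxidants and reactive phenols.

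The totals behind the deposited FPKM values were 15.5 and 14.7 megareads in the normoxia libraries and 16.0 and 16.7 megareads in the ischemia libraries. Levels are given as RPM, the reads of a gene in a library per megaread of that total, always in the order first library, then second library. A gene is called when the adjusted p in the authors' deposited table was under 0.05. Over the 6494 listed genes that averaged 5 RPM or more, Pearson's r of log values across genes was 0.990 and 0.993 within the groups and 0.812 to 0.852 between them. Whether the libraries of a group stem from separate cell isolations is not stated in the labels, and p-values here therefore measure a spread that may be technical. With 2 libraries against 2 the smallest two-sided p of an exact permutation test is 0.333, so only fits across all genes could make calls.

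Markers of the labelled cell type stood at high levels. Of 8 cardiomyocyte markers 7 were listed, and their summed level was 62602 and 62203 RPM in normoxia and 33695 and 31232 RPM in ischemia. Markers of other heart cells were present too, with summed levels of 16988 and 17942 RPM in normoxia for the listed fibroblast markers, 7132 and 6492 RPM for smooth muscle and pericyte markers, 267 and 248 RPM for endothelial markers and 94.7 and 92 RPM for macrophage markers. No T cell, B cell or erythroid marker was listed. The RNA is that of a whole culture, in which fewer cells of a type and less RNA per cell cannot be told apart.

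Ischemia changed a large share of the transcriptome in both directions. Of 16021 genes adjusted by the authors, 6578 were called in their deposited table, which is 41.1%, with 3134 (19.6%) higher and 3444 (21.5%) lower in ischemia. The number 16021 was worked out from the p-values, their ranks and the adjusted p-values of the listed genes. Both ischemia libraries lay outside the range of both normoxia libraries, in the called direction, for 3131 of the higher and 3441 of the lower genes. This separation was also a condition for naming many of the genes below. Where it is stated again it describes levels and adds no support. Genes called higher took 21.0% and 21.5% of all reads in normoxia and 35.3% and 33.7% in ischemia, whereas genes called lower took 53.1% and 52.3% in normoxia and 28.7% and 30.1% in ischemia. The 2 groups did not overlap in either share. At least a 2-fold change was seen for 1096 genes called higher and 1474 called lower, and at least a 16-fold change for 63 and 37. The median log2 fold change over all listed genes was -0.27 in the authors' deposited table, and refits moved it to -0.19 with TMM and to -0.053 with DESeq2 size factors. Small falls therefore depend on the scaling. Both refits took their factors from the listed genes alone, which were selected for a small p. Such factors draw the median of these genes toward no change. A call lost with them therefore does not show that a gene was unchanged, nor which scaling is right. The medians of gene lists below are to be read beside -0.27, and counts of called members beside 19.6% higher and 21.5% lower.

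**Figure D1:**
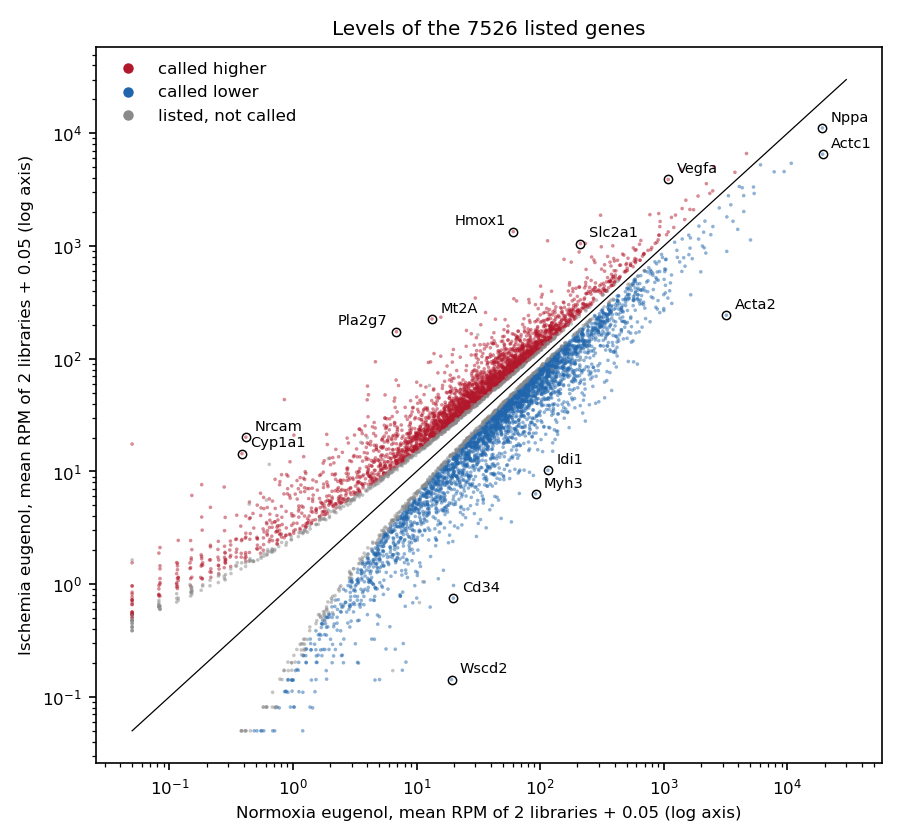
Mean RPM of each of the 7526 listed genes in normoxia eugenol (x axis) and ischemia eugenol (y axis), both log axes with 0.05 RPM added, n = 2 libraries per group. Red points are the 3134 genes called higher, blue points the 3444 called lower and grey points the 948 listed but not called, and the empty band along the line of equality holds the genes that the deposited table leaves out.

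The largest rises included genes of surface proteins, detoxification and oxidant defence. Nrcam, a neuronal cell adhesion molecule, rose from 0.323 and 0.408 RPM in normoxia to 20.4 and 19.8 RPM in ischemia, and Pla2g7, a secreted phospholipase that hydrolyses platelet-activating factor, from 5.56 and 8.1 to 195 and 153 RPM. The 2 groups lay far apart for both genes. Cyp1a1, a cytochrome induced by the aryl hydrocarbon receptor, rose from 0.129 and 0.545 to 11.9 and 16.8 RPM, and Slamf7, a receptor of immune cells, from 0.388 and 0.0681 to 9.31 and 5.15 RPM. The 10 largest rises also included Hmox1, Osgin1, Mt2A, Mt1 and Srxn1, which are described with oxidant defence. Their log2 fold changes in the authors' deposited table ran from 3.85 for Srxn1 to 4.47 for Hmox1, against 5.78 for Nrcam.

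The largest falls were led by Wscd2, a gene of a WSC domain protein (chromosome 12, 48817320 to 48857724, minus strand, as deposited, with no genome build named). Wscd2 had 288 and 289 reads in the normoxia libraries and 2 and 1 in the ischemia libraries, which is 18.6 and 19.7 RPM against 0.125 and 0.0599 RPM. Cd34, a surface sialomucin of endothelium and of blood progenitors, fell from 21.7 and 18 to 0.625 and 0.778 RPM, and Asb4, a substrate adaptor of ubiquitin ligases, from 55.6 and 61.4 to 2.19 and 4.85 RPM. Myh3, the embryonic myosin heavy chain, fell from 91.3 and 92.7 to 5.5 and 7.06 RPM, and Acta2, smooth muscle actin, from 3428 and 2997 to 228 and 259 RPM. In each of these 5 genes both ischemia libraries lay well below both normoxia libraries. Timm17b, part of the import channel of the inner mitochondrial membrane, Cmtm5, Fam180a and Cmklr1, the chemerin receptor, make up the same group with normoxia means between 5.61 and 16.5 RPM. Ndufa1, a small complex I subunit, met the same rule although its libraries were uneven, at 173 and 13 reads in normoxia and 8 and 4 in ischemia. Without the first normoxia library its edgeR quasi-likelihood refit gave a log2 fold change of -1.25 with a Benjamini-Hochberg adjusted p of 0.256.

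Hypoxia-inducible factor targets rose almost throughout. Of 32 genes on the list 29 were listed, 28 called higher and 1 lower, with a median log2 fold change of 1.53 over the listed members. Ndrg1, a widely used marker of hypoxia, had 27.6 and 32.1 RPM in normoxia and 357 and 334 RPM in ischemia. Ero1l, the oxidase that forms disulfide bonds in the endoplasmic reticulum, rose from 109 and 120.2 to 1199 and 1028 RPM, and Slc2a1, the glucose transporter GLUT1, from 199.8 and 224 to 1128 and 975 RPM. Ischemia libraries were the higher ones for each gene, and the groups did not overlap. The edgeR quasi-likelihood refit gave log2 fold changes of 3.54 ± 0.10 (SE) for Ndrg1, 3.28 ± 0.10 for Ero1l and 2.31 ± 0.10 for Slc2a1, all with Benjamini-Hochberg adjusted p of at most 1.23e-07. Among secreted products, Vegfa, the main growth factor of vessel sprouting, rose from 983 and 1192 to 4173 and 3621 RPM and Adm, the vasodilator peptide adrenomedullin, from 33.9 and 32.3 to 209.6 and 191 RPM. The lower member was Slc16a3, the lactate exporter MCT4, with 413 and 454 RPM in normoxia and 357 and 364 RPM in ischemia, a small fall without overlap that lost its call in edgeR with TMM (-0.19) and with DESeq2 size factors (-0.051), and without the second normoxia library.

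The promoter of Slc2a1 is shown because the gene is a HIF target that carries several copies of the core of the hypoxia response element, ACGTG or GCGTG on either strand. The 250 bases before its RefSeq start (GRCr8, chr5:138002272-138002521, plus strand) hold 4 matches, in capitals, between positions -153 and -16 from the start.
Slc2a1: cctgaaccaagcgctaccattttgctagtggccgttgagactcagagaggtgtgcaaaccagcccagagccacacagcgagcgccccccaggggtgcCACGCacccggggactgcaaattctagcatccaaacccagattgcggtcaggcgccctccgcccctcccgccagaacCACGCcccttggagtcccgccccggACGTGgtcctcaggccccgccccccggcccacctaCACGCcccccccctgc
Over all 27457 RefSeq promoters 37.9% held the core. Of 29 listed HIF targets 24 had a promoter, and 58.3% of these held the core. Among genes called higher with a promoter 61.7% held it, and among those called lower 52.6%. Promoters were found for 76.3% and 74.5% of these sets, under 80%. The share of the list was thus no higher than that of all genes called higher. A match is a description of letters and not of a bound site.

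The sensors and subunits of the pathway itself rose by smaller amounts. Of 13 genes 9 were listed, with 8 called higher and 1 lower and a median of 0.59. Egln3, the HIF prolyl hydroxylase PHD3, which is itself a HIF target, rose from 561 and 713 to 1055 and 1019 RPM. Cited2, which competes with HIF for its coactivators, rose from 154 and 133 to 229.9 and 239 RPM, and Arnt, the shared beta subunit, from 37.7 and 37.9 to 68.5 and 59 RPM. Groups did not overlap in any of these. Hif1a, the alpha subunit regulated mainly as a protein, had 102 and 111 RPM in normoxia and 134 and 123 RPM in ischemia, a log2 fold change of 0.27 ± 0.09 (SE, n = 2 per group) whose call was lost in several edgeR refits, among them those without either normoxia library, without the first ischemia library and with all 8 libraries. The lower member, Arnt2, a close relative of Arnt known mainly from the nervous system, fell from 12.3 and 11 to 2.94 and 2.93 RPM. HIF hydroxylases belong to the 2-oxoglutarate oxygenases, enzymes that use oxygen and iron. Of 29 others 22 were listed, with 21 called higher and 1 lower and a median of 0.69. They included the histone demethylases Kdm3a, from 85.5 and 97.9 to 309 and 296 RPM, and Kdm4b, from 93.1 and 112 to 336 and 273 RPM. The collagen prolyl hydroxylases parted, with P4ha1 rising from 349 and 354 to 851 and 766 RPM and P4ha3 falling from 42.1 and 40.8 to 15.2 and 18.2 RPM.

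**Figure D2:**
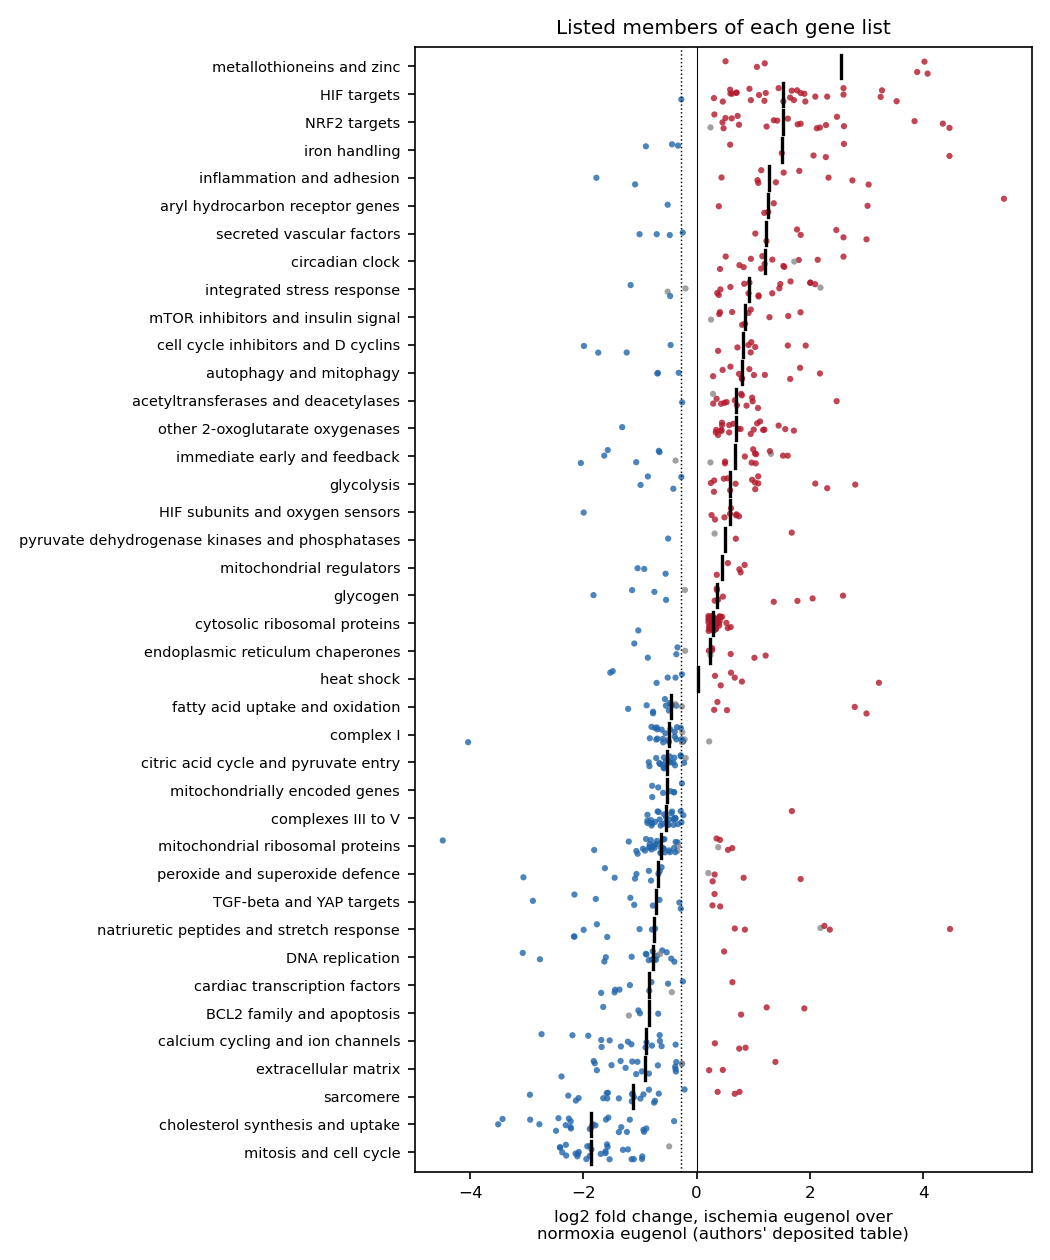
Log2 fold changes in the authors' deposited table of the listed members of each gene list, 1 point per gene, red for called higher, blue for called lower and grey for listed but not called. Thick bars mark the median of each list and the dotted line the median of all listed genes, -0.27, with medians that run from 2.55 for metallothioneins and zinc to -1.86 for mitosis and for cholesterol synthesis.

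Glycolysis rose at most of its steps, and isoforms typical of muscle or heart were among the exceptions. Of 23 genes 19 were listed, with 15 called higher and 4 lower and a median of 0.59. Gpi, which turns glucose phosphate into fructose phosphate, rose from 839.9 and 983 to 2038 and 1848 RPM, Aldoa, the main muscle aldolase, from 2336 and 2774 to 5266 and 4844 RPM, and Eno2, the neuronal enolase, from 3.3 and 3.47 to 26.5 and 20.8 RPM. All 3 genes were higher in both ischemia libraries. The 4 lower members were Slc16a3, Ldhb, Eno3 and Pgam2. Ldhb, the heart form of lactate dehydrogenase, had 757 and 825 RPM in normoxia and 615 and 578 RPM in ischemia, and its call was lost with DESeq2 size factors in edgeR (-0.19). Eno3, the muscle enolase, fell from 35.5 and 34.7 to 19.7 and 15.8 RPM, and Pgam2, the muscle phosphoglycerate mutase, from 17.6 and 21.6 to 11.2 and 10.4 RPM. Since sequence-related isoforms may share reads, which was not tested, pairs were compared per length, as the share of the first gene in the summed FPKM of both. Ldha made up 72.2 and 72.8% of Ldha plus Ldhb in normoxia and 81 and 81.5% in ischemia. Pgam1 made up 96.7 and 96.2% of its pair with Pgam2 in normoxia and 98.3 and 98.4% in ischemia. Shares did not overlap between the groups, and they do not depend on how libraries are scaled. The rise of Ldha itself was small, from 2351 and 2632 to 3141 and 3035 RPM, and it lost its call in edgeR without the first normoxia library (0.23).

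**Figure D3:**
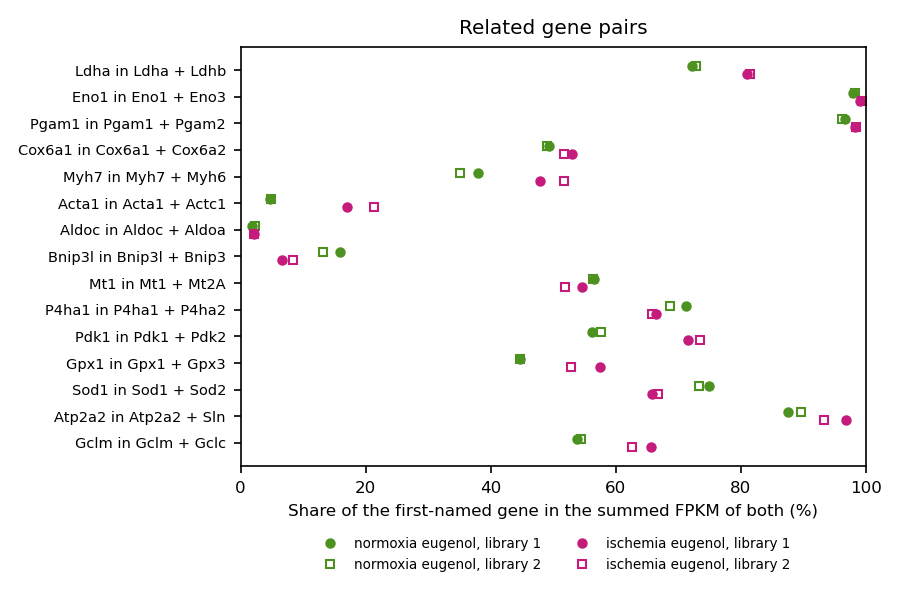
Share of the first-named gene in the summed FPKM of 15 related gene pairs (x axis, percent), with green symbols for normoxia eugenol and pink symbols for ischemia eugenol, filled circles for the first library and open squares for the second. The ischemia shares of Ldha, Myh7, Acta1, Pdk1, Gpx1 and Gclm lie above both normoxia shares, those of Bnip3l, Sod1 and P4ha1 below both, and those of Aldoc overlap.

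Genes at the ends of the glycolytic route moved with it. Of 17 glycogen genes 14 were listed, with 9 called higher and 4 lower. Enzymes that build and branch glycogen rose, such as Ugp2, which makes UDP-glucose, from 103 and 102 to 372 and 333 RPM and the branching enzyme Gbe1 from 77.8 and 84.1 to 383 and 288 RPM, and so did the liver phosphorylase Pygl, which degrades it, from 24.5 and 30.9 to 175 and 159 RPM. Lower members were Ppp1r3d, a subunit that targets a phosphatase to glycogen, from 127 and 129 to 31.7 and 40.9 RPM, the brain phosphorylase Pygb, the primer protein Gyg1 and the kinase subunit Phka1. Groups did not overlap in any of these 7 genes. Of 7 genes that set the activity of pyruvate dehydrogenase 4 were listed. Its inhibitory kinase Pdk1 rose from 107 and 141 to 410.0 and 385 RPM and Pdk2 from 64.4 and 80.4 to 127 and 108 RPM, while Pdk3 fell from 31.4 and 31.6 to 21.9 and 22.6 RPM, a call lost with DESeq2 size factors in edgeR (-0.28).

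NRF2 targets rose without a called exception. Of 28 genes 22 were listed, with 21 called higher, 0 lower and a median of 1.52. Hmox1, the enzyme that degrades haem (chromosome 19, 14508616 to 14515456, plus strand), had 51.3 and 70 RPM in normoxia and 1456 and 1230.0 RPM in ischemia. Osgin1, a growth inhibitor induced by oxidative stress, rose from 4.98 and 4.22 to 102 and 86.3 RPM, and Srxn1, which repairs oxidised peroxiredoxins, from 3.36 and 4.56 to 64.8 and 49.5 RPM. Txnrd1, the cytosolic thioredoxin reductase, went from 153 and 159 to 816 and 709.8 RPM. For all 4 genes both ischemia libraries were higher by several times. The edgeR quasi-likelihood log2 fold change was 4.47 ± 0.15 (SE) for Hmox1 and 2.29 ± 0.09 for Txnrd1, with Benjamini-Hochberg adjusted p of 5.88e-08 and 1.07e-07. Both subunits of the enzyme that limits glutathione synthesis rose, the modifier Gclm from 37.4 and 37.9 to 143 and 127 RPM and the catalytic Gclc from 66.1 and 65 to 154 and 155 RPM.

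Promoters of Gstp1, a glutathione transferase, and Gclm are shown because both genes were called higher and hold the core of the antioxidant response element, TGACNNNGC on either strand, where N is any base. The match, in capitals, starts at position -61 in Gstp1 (GRCr8, chr1:210769706-210769955, minus strand) and at -172 in Gclm (GRCr8, chr2:213031885-213032134, plus strand).
Gstp1: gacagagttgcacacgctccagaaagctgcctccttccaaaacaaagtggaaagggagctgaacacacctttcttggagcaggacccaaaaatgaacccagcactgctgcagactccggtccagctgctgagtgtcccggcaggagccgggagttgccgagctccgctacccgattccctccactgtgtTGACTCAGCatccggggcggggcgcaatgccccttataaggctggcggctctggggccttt
Gclm: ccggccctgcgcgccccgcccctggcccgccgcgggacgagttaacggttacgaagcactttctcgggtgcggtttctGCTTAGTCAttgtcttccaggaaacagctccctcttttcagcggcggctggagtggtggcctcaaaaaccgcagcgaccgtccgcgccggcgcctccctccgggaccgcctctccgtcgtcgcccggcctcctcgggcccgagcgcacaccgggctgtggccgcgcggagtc
Over all promoters 10.2% held the core. RefSeq promoters were found for 17 of the 22 listed targets, under 80%, so only a count is given for the list. The core was held by 4 of these 17 promoters. The 2 shown were chosen for a match, and most promoters found for the list had none.

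Iron, zinc and metal-binding genes moved alongside. Of 15 iron genes 9 were listed, with 6 called higher and 3 lower. Ftl1, the light chain of the iron store ferritin, rose from 301 and 316 to 1967 and 1787 RPM. Steap3, which reduces iron in endosomes, rose from 10.6 and 12.3 to 50.2 and 45.9 RPM and Hamp, the peptide hormone hepcidin that blocks iron export, from 4.27 and 4.63 to 17.5 and 25.9 RPM. The importers went the other way. Tfrc, the transferrin receptor, had 682 and 793 RPM in normoxia and 603 and 575 RPM in ischemia and lost its call in edgeR with TMM (-0.25) and DESeq2 size factors (-0.11), and without the second normoxia library, and Slc11a2, the iron transporter DMT1, had 84.4 and 91.2 against 71 and 59.4 RPM, a call lost in edgeR with DESeq2 size factors (-0.21). Of 10 metallothionein and zinc genes 6 were listed, all called higher, with a median of 2.55. Mt1 rose from 14.4 and 17 to 253 and 214 RPM and Mt2A from 12.2 and 14.4 to 232 and 219 RPM, both encoding small proteins that bind zinc and copper. The zinc importers Slc39a10, from 35.8 and 34.7 to 88.3 and 74.4 RPM, and Slc39a6, from 47.1 and 42.1 to 92.8 and 94.4 RPM, rose less. Mt1 and Mt2A are close relatives, so reads may be shared between them, which was not tested.

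Their promoters are shown because both genes lie near each other on chromosome 19 and hold several copies of the core of the metal response element, TGCNCNC on either strand. The windows hold 7 matches for Mt1 (GRCr8, chr19:10832976-10833225, minus strand) and 5 for Mt2A (GRCr8, chr19:10838709-10838958, minus strand), in capitals.
Mt1: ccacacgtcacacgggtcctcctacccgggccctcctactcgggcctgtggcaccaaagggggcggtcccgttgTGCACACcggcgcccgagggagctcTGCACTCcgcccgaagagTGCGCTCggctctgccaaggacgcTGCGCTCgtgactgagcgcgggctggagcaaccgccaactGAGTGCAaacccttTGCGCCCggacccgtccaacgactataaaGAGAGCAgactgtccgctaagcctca
Mt2A: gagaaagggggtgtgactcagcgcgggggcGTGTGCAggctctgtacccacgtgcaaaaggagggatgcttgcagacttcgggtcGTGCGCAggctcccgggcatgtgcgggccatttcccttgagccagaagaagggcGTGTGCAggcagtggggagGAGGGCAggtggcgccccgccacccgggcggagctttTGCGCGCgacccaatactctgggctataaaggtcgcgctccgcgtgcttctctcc
Over all promoters 43.9% held the core.

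Other enzymes against peroxide and superoxide mostly fell. Of 22 genes 15 were listed, with 4 called higher and 10 lower and a median of -0.67. Txnip, which binds and restrains thioredoxin, fell from 222 and 242 to 25.2 and 30.7 RPM. Gpx3, a secreted glutathione peroxidase, fell from 340.0 and 362 to 114 and 144 RPM and Sod3, the extracellular superoxide dismutase, from 52.8 and 47.5 to 14.4 and 18.3 RPM. In contrast Cat, the peroxisomal catalase, rose from 98.7 and 109 to 386 and 360.0 RPM and Sod2, the mitochondrial dismutase, from 179 and 199 to 350.0 and 324 RPM, again without overlap. The other higher members, Sod1 and Txn2, rose by only 0.28 and 0.32 on the log2 scale in the authors' deposited table, and both lost their calls in edgeR without either normoxia library. Of 10 aryl hydrocarbon receptor genes 7 were listed. Besides Cyp1a1, the cytochrome Cyp1b1 rose from 118 and 119.9 to 251 and 295 RPM, the quinone reductase Nqo1 from 47.1 and 36.4 to 96.3 and 119 RPM and Nfe2l2, the gene of NRF2 itself, from 130.3 and 126 to 327 and 292 RPM. The receptor, Ahr, was the single lower member of the list, with 28.4 and 25.7 RPM in normoxia and 17.2 and 20.8 RPM in ischemia, and lost its call with DESeq2 size factors in edgeR and without the first normoxia library.

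Most listed genes of mitochondrial energy supply fell. Of 26 genes of the citric acid cycle and pyruvate entry 22 were listed, with 21 called lower, 0 higher and a median of -0.53. Mdh2, mitochondrial malate dehydrogenase, fell from 602 and 619.6 to 337 and 345 RPM and Ogdh, the oxoglutarate dehydrogenase, from 161 and 171 to 98.1 and 89 RPM. Of 38 complex I genes 27 were listed, with 22 called lower and 0 higher, of which 14 calls were left in edgeR with DESeq2 size factors. Ndufs1, its largest subunit, fell from 484 and 500.5 to 300.1 and 293 RPM. Of 39 genes of complexes III to V 31 were listed, with 30 called lower, such as Atp5g3, part of the rotor ring of ATP synthase, from 661 and 663 to 363 and 364 RPM. The exception was Cox4i2, the cytochrome oxidase subunit induced by hypoxia, which rose from 12.2 and 14.2 to 41.6 and 43.5 RPM. Groups did not overlap in any of these 5 genes.

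Protein-coding transcripts made inside mitochondria fell as well. All 8 listed of 10 mitochondrially encoded genes were called lower, with a median of -0.53, and 5 stayed called with DESeq2 size factors in edgeR. Mt-co2, a cytochrome oxidase subunit, fell from 5412 and 5239 to 3052 and 3626 RPM and Mt-nd1, a complex I subunit, from 3452 and 3528 to 2340.4 and 2305 RPM. The 2 ribosome families went opposite ways. Of 49 genes of mitochondrial ribosomal proteins 39 were listed, with 32 called lower and 4 higher and a median of -0.63, whereas of 52 genes of cytosolic ribosomal proteins 45 were listed, with 44 called higher and 1 lower and a median of 0.29. Rpl3, a core protein of the large cytosolic subunit, rose from 917 and 907 to 1258 and 1243 RPM, and Mrpl12, of the large mitochondrial subunit, fell from 179 and 183 to 108 and 85.4 RPM. The lower cytosolic member was Rpl10l, a retrogene copy of Rpl10, from 14.7 and 15.1 to 6.12 and 8.5 RPM. Ribosomal protein genes have many near-identical copies, so their values are uncertain where reads could be split.

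Fatty acid genes and mitochondrial regulators were mixed. Of 30 fatty acid genes 18 were listed, with 5 called higher and 11 lower, of which 6 lower calls were left in edgeR with DESeq2 size factors. Fabp3, which carries fatty acids in heart muscle, fell from 525 and 559 to 235 and 235 RPM and Acadm, which starts oxidation of medium chains, from 171 and 178 to 90.5 and 99.1 RPM. Angptl4, a secreted inhibitor of lipoprotein lipase that responds to hypoxia and fasting, rose from 0.97 and 1.09 to 8.31 and 8.2 RPM, and Cpt1b, which admits long chains to mitochondria in muscle, from 86.4 and 104 to 146 and 131 RPM. Echs1 rested on uneven normoxia libraries (5.88 and 0.953 RPM, against 26.5 and 21 RPM in ischemia). Of 15 regulators 8 were listed. Esrra, a nuclear receptor of mitochondrial genes, rose from 139 and 139 to 266 and 204 RPM, while its relative Esrrg fell from 98 and 97.3 to 64.6 and 69.4 RPM and the coactivator Ppargc1a from 38 and 50.2 to 23.6 and 22.9 RPM.

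Cholesterol synthesis fell as a whole. Of 26 genes 25 were listed and all 25 were called lower, with a median of -1.86 beside -0.27 over all listed genes. Idi1, the isomerase of the mevalonate pathway, fell from 123 and 108 to 8.43 and 12 RPM, and Hmgcs1, which makes HMG-CoA, from 371 and 321 to 69.2 and 58.8 RPM. Acat2, the acetoacetyl-CoA thiolase of the cytosol, fell from 72.5 and 63.2 to 6.56 and 6.11 RPM and Sqle, squalene epoxidase, an enzyme that uses oxygen, from 162 and 153 to 31.7 and 35.8 RPM. All ischemia values lay several times below all normoxia values. The edgeR quasi-likelihood refit gave log2 fold changes of -3.50 ± 0.15 (SE) for Idi1 and -2.43 ± 0.11 for Hmgcs1, with Benjamini-Hochberg adjusted p of 1.27e-07 and 1.68e-07.

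Genes of cell division fell in the same range. Of 28 mitosis and cell cycle genes 27 were listed, with 26 called lower, 0 higher and a median of -1.86. Prc1, which bundles microtubules of the dividing cell, fell from 277 and 252 to 65.6 and 72 RPM and Cdc20, which activates the ligase that starts anaphase, from 119.9 and 119 to 23.7 and 25 RPM. Top2a, the topoisomerase of dividing cells, fell from 241 and 221 to 46.2 and 61.5 RPM and Ccnb1, cyclin B1, from 109.7 and 93.6 to 17.3 and 21 RPM. The libraries of the 2 groups were far apart in each case. Of 26 DNA replication genes 19 were listed, with 17 called lower. Rrm2, the ribonucleotide reductase subunit made in S phase, fell from 131 and 122 to 11.2 and 19 RPM and Tk1, a thymidine kinase, from 73.7 and 61.5 to 9.56 and 10.4 RPM. The higher member was Gins2, part of the replicative helicase, from 22.7 and 20.8 to 29.9 and 31.2 RPM, a call lost in edgeR without the second normoxia library (0.43). D cyclins, which carry growth signals to the cycle, fell, Ccnd1 from 222 and 207 to 61.8 and 66.9 RPM and Ccnd3 from 231 and 222 to 96.4 and 96.8 RPM. Cdkn1a, the inhibitor p21, rose from 120.5 and 113 to 231 and 222 RPM and the atypical cyclin Ccng2, which is linked to cell cycle arrest, from 31.2 and 39.1 to 140.2 and 128 RPM. These belong to a list of 18 cell cycle inhibitors and D cyclins, of which 12 were listed, 8 called higher and 4 lower.

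Promoters of Prc1 and Cdc20 are shown because both genes fell and carry the 2 kinds of element typical of genes switched on late in the cell cycle, a CCAAT box and the cell cycle homology region TTTGAA or TTCGAA, each searched on both strands. Matches of either element are in capitals, 3 in Prc1 (GRCr8, chr1:143659231-143659480, plus strand) and 3 in Cdc20 (GRCr8, chr5:137255800-137256049, minus strand).
Prc1: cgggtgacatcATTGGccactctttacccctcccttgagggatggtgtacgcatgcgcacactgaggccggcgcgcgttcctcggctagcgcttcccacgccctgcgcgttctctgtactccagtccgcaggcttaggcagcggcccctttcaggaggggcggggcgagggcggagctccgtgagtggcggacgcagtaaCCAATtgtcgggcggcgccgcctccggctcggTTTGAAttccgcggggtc
Cdc20: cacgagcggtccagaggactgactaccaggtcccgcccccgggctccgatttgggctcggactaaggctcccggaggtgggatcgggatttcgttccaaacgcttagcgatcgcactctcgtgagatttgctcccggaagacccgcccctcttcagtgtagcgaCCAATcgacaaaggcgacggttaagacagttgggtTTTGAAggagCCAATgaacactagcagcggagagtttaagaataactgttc
Over all promoters 34.3% held CCAAT and 17.3% the homology region. RefSeq promoters were found for 20 of the 27 listed genes, under 80%, so only counts are given for the list. Of these 20 promoters 15 held CCAAT and 9 the homology region, and the 2 shown were chosen for holding both.

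**Figure D4:**
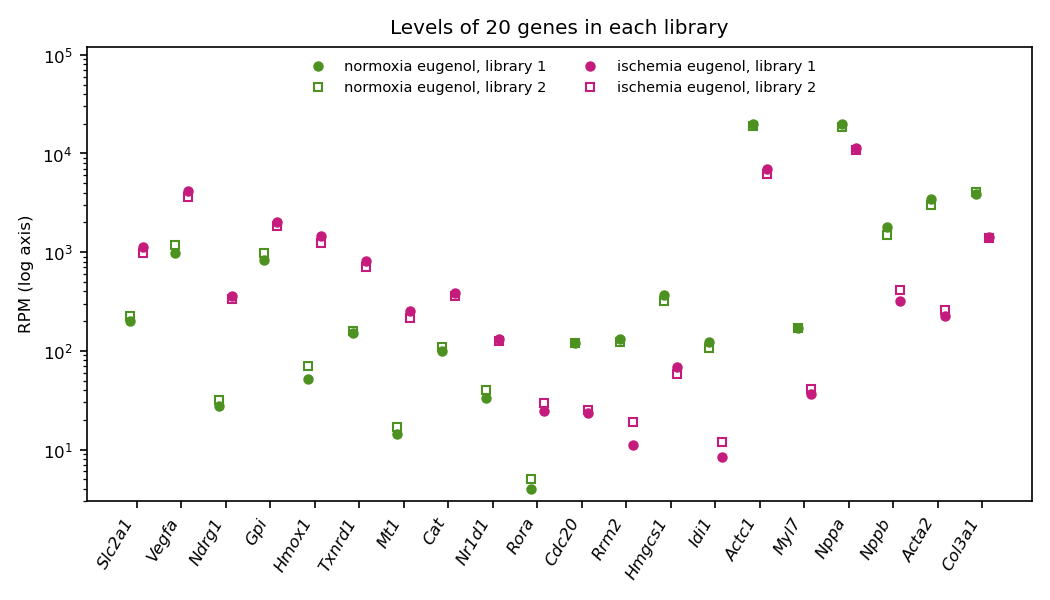
RPM of 20 genes in each of the 4 libraries (log axis), with green symbols for normoxia eugenol and pink symbols for ischemia eugenol, filled circles for the first library and open squares for the second. In every gene shown the libraries of the 2 groups do not overlap, and the gap between groups exceeds the gap within them. Non-overlap was a condition for choosing many of the named genes.

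The contractile apparatus fell, with a change in the balance of its actins. Of 27 sarcomere genes 23 were listed, with 20 called lower and 3 higher and a median of -1.13. Actc1, cardiac actin, fell from 19749 and 18832 to 6891 and 6180.1 RPM, Myl7, the atrial regulatory light chain, from 172 and 169 to 36.7 and 41.2 RPM and Ldb3, a protein of the Z disc, from 1073 and 1088 to 336 and 355 RPM. The higher members included Acta1, skeletal actin, from 926 and 934 to 1360.0 and 1615 RPM, and the intermediate filament Des, from 1592 and 1665 to 2116 and 2109 RPM. Per length, Acta1 made up 4.63 and 4.89% of Acta1 plus Actc1 in normoxia and 17 and 21.3% in ischemia, shares far apart between groups. The cardiac myosins shifted too. Myh6, the fast heavy chain, fell from 9916 and 11609 to 5978 and 4868 RPM, while Myh7, the slow heavy chain, had 5958 and 6183 RPM in normoxia and 5388 and 5117 RPM in ischemia. The small fall of Myh7 (-0.21 ± 0.06, SE, edgeR) came to 0.0062 with DESeq2 size factors, with no call, and was also not called with TMM (-0.13), without the second library of either group or with all 8 libraries in the fit. Myh7 made up 37.9 and 35.2% of the pair per length in normoxia and 47.8 and 51.7% in ischemia, without overlap. Reads may be shared between these similar genes, which was not tested.

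Genes of excitation and of the cardiac programme followed the sarcomere. Of 25 calcium cycling and ion channel genes 19 were listed, with 16 called lower and 3 higher and a median of -0.90. Casq2, the calcium store protein, fell from 1164 and 1162 to 289 and 331 RPM and Jph2, which holds the membranes of the release unit together, from 586 and 639.6 to 216 and 208 RPM. The higher members were Gja1, connexin 43, from 490.2 and 587 to 691 and 659.8 RPM, and the channels Hcn2, from 61.9 and 93.6 to 141 and 122 RPM, and Kcnd3, from 8.02 and 12.7 to 20.8 and 17.1 RPM. Without the first normoxia library the calls of Gja1 (0.20) and Kcnd3 (0.57) were lost in edgeR. Of 16 cardiac transcription factors 11 were listed, with 9 called lower and 1 higher. Tbx20 fell from 259 and 278 to 76 and 91.4 RPM and Myocd, which drives muscle genes with SRF, from 114 and 133 to 53.6 and 43 RPM, while Mef2d rose from 109.7 and 123 to 187 and 175 RPM. The natriuretic peptides fell, Nppa from 19947 and 18462 to 11356 and 10952 RPM and Nppb from 1808 and 1499 to 323 and 416 RPM. On the same list of 15 natriuretic and stretch genes, of which 14 were listed, 8 were called lower and 5 higher. Fhl1, a protein of stretch sensing, fell from 2096 and 1894 to 547 and 634 RPM. In contrast the transcription factor Myc rose from 27.8 and 22.5 to 135 and 123 RPM. The stress cytokine Gdf15 rose from 21.4 and 17.5 to 96.6 and 90 RPM.

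The integrated stress response rose, and chaperones of the endoplasmic reticulum were mixed. Of 25 integrated stress response genes 21 were listed, with 16 called higher and 2 lower and a median of 0.93. Atf4, the factor at its centre, rose from 284 and 260.5 to 801 and 703 RPM, Ddit3, the factor CHOP, from 38.7 and 45.7 to 191 and 149 RPM, and Slc3a2, a chain of amino acid transporters, from 184 and 173 to 774 and 666 RPM. The lower members were Psat1, from 44.2 and 40.7 to 30.2 and 31.4 RPM, and Psph, from 31.2 and 24.2 to 11 and 13.8 RPM, both enzymes of serine synthesis, and the call of Psat1 was lost in edgeR with DESeq2 size factors (-0.25). Of 20 chaperone genes of the endoplasmic reticulum 12 were listed, with 6 called higher and 4 lower. Herpud1, which takes part in protein degradation there, rose from 118 and 125 to 247 and 247 RPM and the cochaperone Dnajb9 from 40 and 40.5 to 102 and 85.4 RPM, while Dnajb11 fell from 138 and 129.9 to 61 and 64.5 RPM and the disulfide isomerase Pdia6 from 362 and 321 to 175 and 202 RPM. Heat shock genes split evenly, with 6 called higher and 6 lower of 20. Hspa1b, an inducible HSP70, rose from 2.2 and 1.5 to 17.1 and 17.5 RPM. The small heat shock proteins were called in both directions, and the lower ones included Cryab, from 1137 and 1097 to 347 and 456 RPM, and Hspb2, from 184 and 181 to 61.6 and 65.5 RPM.

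Genes of autophagy and of restrained growth rose. Of 26 autophagy genes 15 were listed, with 12 called higher and 3 lower and a median of 0.80. Sqstm1, the receptor that links cargo to the autophagosome, rose from 226 and 239 to 1102 and 1007 RPM, Gabarapl1, of the membrane itself, from 54.8 and 55 to 189 and 202 RPM, and Bnip3, a mitophagy receptor and HIF target, from 279.7 and 345 to 1040.3 and 929.9 RPM. The lower members were Map1lc3a, Becn1 and the protease Ctsb, the last from 488 and 490.4 to 371 and 418 RPM, with its call lost in edgeR with DESeq2 size factors (-0.10). Of 18 genes of insulin signalling and mTOR inhibition 11 were listed, with 10 called higher and 0 lower. Foxo3, a factor held back by insulin, rose from 30.1 and 35.5 to 127 and 107 RPM and Insr, the insulin receptor, from 94.8 and 106 to 252 and 238 RPM. Of 22 BCL2 family and apoptosis genes 8 were listed, with 3 called higher (13.6%) and 4 lower (18.2%). Over all genes adjusted 19.6% were called higher and 21.5% lower, so neither count exceeds that share. The called higher members were the death-promoting Bcl2l11 (BIM), from 14.9 and 18.7 to 63.7 and 62.3 RPM, Bid, from 7.05 and 5.17 to 15.9 and 13 RPM, and Bmf, from 9.37 and 10.3 to 12.8 and 21.3 RPM, which was not called in edgeR without the second ischemia library (0.38). The protective Bcl2l1 (BCL-XL) fell from 84.8 and 76.1 to 37.2 and 43.4 RPM and Bcl2 from 15.9 and 13.1 to 3.81 and 5.45 RPM, but so did Bad, a death-promoting member, from 32.3 and 29.7 to 15.8 and 14.7 RPM.

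Clock genes rose together. Of 19 genes 15 were listed, with 14 called higher, 0 lower and a median of 1.20. Both REV-ERB repressors rose, Nr1d1 from 33.6 and 39.8 to 131 and 125 RPM and Nr1d2 from 76.7 and 88.9 to 219.8 and 199.7 RPM, and so did Rora, which acts on the same DNA elements as an activator, from 3.94 and 5.04 to 24.5 and 29.8 RPM. The output factor Tef rose from 65 and 74.3 to 166 and 146 RPM. For each of them both ischemia libraries were the higher ones. All libraries were taken at 24 h, so the time of day within a rhythm was not measured. Of 30 acetyltransferase, deacetylase and NAD genes 16 were listed, with 14 called higher and 1 lower. Nampt, which limits the salvage of NAD, rose from 59.7 and 62.8 to 368 and 314 RPM and Crebbp, the coactivator CBP, from 52.8 and 63.2 to 106 and 109 RPM. Hdac2, the lower member, had 158 and 145 RPM in normoxia and 126 and 129 RPM in ischemia, a log2 fold change of -0.25 ± 0.09 (SE, edgeR) that was not called in several edgeR refits, among them those with TMM, with DESeq2 size factors and without either normoxia library.

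The signalling lists held calls in both directions. Of 29 immediate early and feedback genes 20 were listed, with 11 called higher and 6 lower. Egr1, an early response factor, rose from 113 and 79.9 to 265 and 292 RPM and Junb from 103 and 104 to 204 and 223 RPM. Dusp1, a phosphatase that switches off MAP kinases, fell from 122 and 106 to 36 and 41.1 RPM, and so did the feedback inhibitor Spry1, from 70.3 and 62.1 to 22.2 and 20.7 RPM, and Klf2, from 30.6 and 28.7 to 5.06 and 9.34 RPM. Of 24 inflammation and adhesion genes 12 were listed, with 10 called higher and 2 lower and a median of 1.27. Cxcl1, a chemokine for neutrophils, rose from 16.4 and 13.3 to 79.3 and 70.5 RPM and the cytokine Lif from 8.34 and 4.9 to 46.6 and 43 RPM. The lower ones were the monocyte chemokine Ccl2, from 97.9 and 81.8 to 42.5 and 42.4 RPM, and the adhesion molecule Vcam1, from 8.47 and 8.99 to 2.5 and 2.63 RPM. Of 20 secreted vascular factors 11 were listed, with 7 called higher and 4 lower. Besides Vegfa and Adm, the peptide Apln rose from 5.11 and 8.24 to 36.5 and 37.3 RPM, while the vasoconstrictor Edn1 fell from 30.6 and 22.3 to 11.2 and 15.1 RPM and the matrix protein Thbs1, an inhibitor of vessel growth, from 624 and 551 to 370.0 and 479 RPM, a call lost in edgeR with DESeq2 size factors (-0.26).

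Matrix genes and the markers of the other heart cells mostly fell. Of 31 extracellular matrix genes 22 were listed, with 18 called lower and 3 higher and a median of -0.90. Col3a1, a fibrillar collagen, fell from 3888 and 4057 to 1423 and 1389 RPM, Eln, elastin, from 618 and 573 to 178 and 161 RPM, and Loxl1, which crosslinks elastin, from 189 and 193 to 31 and 42.3 RPM. Its relative Loxl2, a HIF target, rose from 149 and 151 to 199.6 and 215 RPM, and the small proteoglycan Dcn from 61 and 71.9 to 178 and 172 RPM. Lox had 318 and 318 RPM in normoxia and 356 and 387 RPM in ischemia, a rise of 0.22 on the log2 scale in the authors' deposited table that edgeR did not call without either normoxia library, without the second ischemia library or with all 8 libraries in the fit. Of 18 TGF-beta and YAP genes 12 were listed, with 9 called lower and 3 higher, and the ligands Tgfb2, from 368 and 298 to 40.4 and 49.6 RPM, and Tgfb3, from 235 and 189 to 63.5 and 60.3 RPM, were among the lower ones.

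Of 12 fibroblast markers 9 were listed, with 2 called higher, Dcn and Vim, and 7 lower, and their summed level in ischemia was 9328 and 10188 RPM. Smooth muscle and pericyte markers had 2 called higher, Pdgfrb and Des, and 6 lower of 9, with 3675 and 3591 RPM in ischemia. Endothelial markers had 5 called lower of 12, with 72.7 and 94.2 RPM, and macrophage markers 7 called lower of 13, with 40.7 and 35.8 RPM. Every one of these sums was lower in both ischemia libraries than in both normoxia libraries, as was that of the cardiomyocyte markers. Examples are Eng, an endothelial receptor, from 223 and 211 to 66.1 and 83.8 RPM, Csf1r, the macrophage growth factor receptor, from 19.2 and 18 to 8.5 and 7.78 RPM, and Cnn1, a smooth muscle protein, from 523 and 488 to 151 and 153 RPM. Of the glial and epicardial markers, Mbp rose from 5.88 and 5.99 to 16.6 and 15 RPM and Wt1 from 6.59 and 6.33 to 19 and 16.6 RPM, while the epicardial marker Upk3b fell from 1.42 and 1.77 to 0.5 and 0.12 RPM. The part of a changed cell makeup in the falls of matrix, cell division and muscle genes was not tested.

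The comparison with the DMSO groups asks whether the response to ischemia differed when eugenol was present. Those groups share no library with the eugenol groups. In the authors' deposited table of ischemia DMSO against normoxia DMSO 6713 of 16406 adjusted genes were called, which is 40.9%. The number 16406 was worked out in the same way as that for eugenol. Of the genes called with eugenol 87.0% (5723) were also called with DMSO, and they made up 85.3% of the genes called with DMSO. Of the 5723 genes 5715 had the same direction and 8 opposite directions, and 551 genes called with eugenol were not listed with DMSO. Of the members listed with eugenol, HIF targets had 28 members called higher with DMSO, cholesterol genes 23 called lower, mitosis genes 27 called lower and clock genes 15 called higher. Cytosolic ribosomal proteins had 28 called higher with DMSO and 44 with eugenol. Only members listed with eugenol were counted, which favours a lower count with DMSO in advance. The counts therefore cannot show whether the response of this list differed, and the difference was not tested as such.

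**Figure D5:**
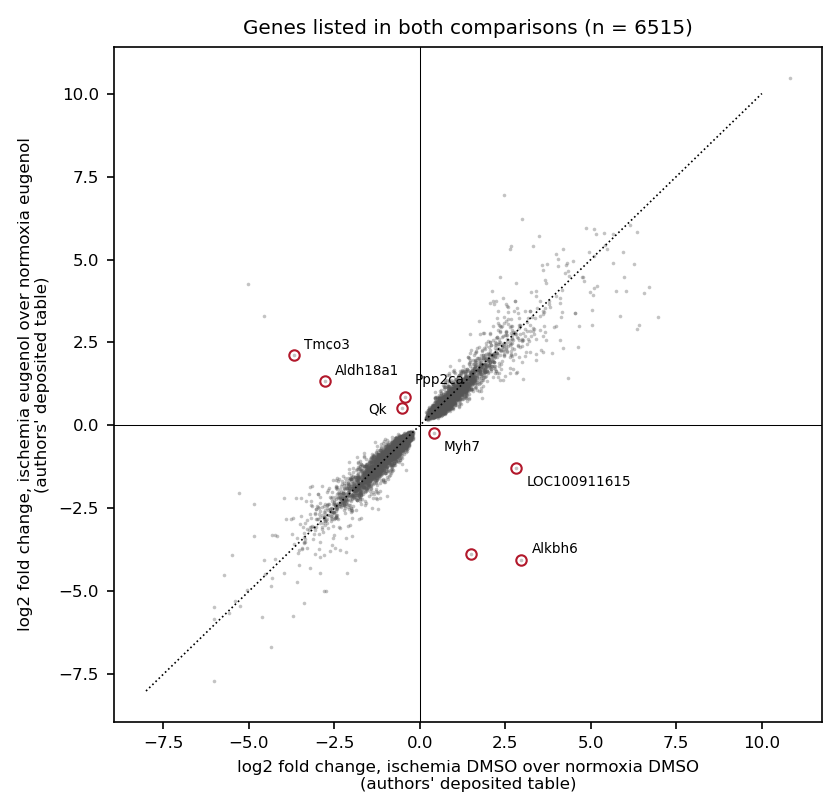
Log2 fold changes of ischemia over normoxia with DMSO (x axis) and with eugenol (y axis) in the authors' deposited tables, 1 point for each of 6515 genes listed in both. The dotted line marks equality, and circles mark the 8 genes called in opposite directions, among them Alkbh6, Tmco3 and Myh7.

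The difference itself was tested as an interaction in an edgeR quasi-likelihood fit over 6582 genes with counts in all 8 libraries. Counts were available only for listed genes, so 6515 of these were genes listed in both ischemia comparisons. Genes listed in only 1 of those comparisons were mostly left out, and the test says little about them. At a Benjamini-Hochberg adjusted p under 0.05 it called 1 gene, which is 0.0152% of those fitted, and DESeq2's Wald test called 5. At an unadjusted p under 0.05 there were 236 genes (3.59%), 93 with a more positive and 143 with a more negative ischemia effect under eugenol. That is no more than the threshold itself would give if no gene differed, so neither the count nor its split is read as an effect. The gene called was Alkbh6, of the AlkB family of oxygenases (chromosome 1, 90957133 to 90962466, minus strand, as deposited), with an interaction of -6.92 ± 0.83 (log2, SE) and an adjusted p of 0.0122. It had 3 and 4 reads in normoxia DMSO, 19 and 37 in ischemia DMSO, 91 and 46 in normoxia eugenol and 4 and 5 in ischemia eugenol. Its groups therefore did not overlap in either comparison, and its direction was opposite, on few reads. The interaction lost its call with a minimum of 5 RPM, a filter that Alkbh6 did not pass, and also without the second ischemia eugenol library or the second ischemia DMSO library, where 0 genes were called.

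Genes with many reads gave narrower estimates. Col1a2, a chain of type I collagen, had 1658 and 1392 RPM in normoxia DMSO, 1233 and 1092 RPM in ischemia DMSO, 1927 and 2455 RPM in normoxia eugenol and 835 and 898 RPM in ischemia eugenol. It was lower in ischemia in both comparisons, and the edgeR interaction of -0.95 ± 0.17 (log2, SE) had a Benjamini-Hochberg adjusted p of 0.143. Myh7 had 4155 and 5034 RPM in normoxia DMSO and 5748 and 6434 RPM in ischemia DMSO, against 5958 and 6183 RPM and 5388 and 5117 RPM in the eugenol groups. It was thus higher in ischemia with DMSO and lower with eugenol, without overlap in either case, and its edgeR interaction of -0.62 ± 0.14 (log2, SE) had a Benjamini-Hochberg adjusted p of 0.343. The other genes called in opposite directions were Ppp2ca, Qk, Tmco3, Aldh18a1, LOC100911615 and an unnamed locus on chromosome 7, with edgeR adjusted p of 0.143 to 0.703. Tmco3 rested on 1 library, with 11 and 100 reads in ischemia eugenol and 8 and 15 in normoxia eugenol. The median SE of an interaction was 0.156 (log2) among genes that averaged 5 RPM or more. At this depth and number of libraries, differences several times that size could go uncalled, as those of Col1a2 and Myh7 did. On simulated data the interaction fit recovered 47.8% of changes of 1.5 times.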

How the data were processed

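RNA-seq libraries were made with an Illumina TruSeq kit and sequenced on a HiSeq 2000 with 4 libraries per lane, per the labels' protocols. The tools in the submitters' processing notes, which give no role to any, are HISAT2, StringTie 1.3.3b, edgeR and DESeq2, and the genome build, strand of counting and version of the annotation are not given in the sources used here. Read counts per gene were deposited by the authors. The deposited normalized signal is the count divided by 1 size factor per library. FPKM values were deposited by the authors, and their ratio to count and length gave the library totals used for RPM. The log2 fold changes, p-values and adjusted p-values were deposited by the authors. The 16021 genes of their adjustment are an estimate, the median over listed genes of adjusted p times rank divided by p. The titles of the tables tie the column codes to the groups, and libraries are called first and second by the number in the code. A value of 1 stands as adjusted p for 13 listed genes.

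The members, lists and tests were chosen with earlier results of these data known. The 40 gene lists and 9 marker lists held 975 symbols, of which 749 matched a deposited name, 22 matched through an older symbol and 204 had no match. Named were the 10 largest rises and 10 largest falls among called genes with a symbol. These also needed non-overlapping groups and 5 RPM or more in the higher group. From each list came up to 4 called members with non-overlapping groups, by smallest adjusted p, and members called against their list's majority. Added were a short set always named, isoform pairs and the 5 smallest interaction p-values. That gave 276 genes, of which the text prints a selection, and a few of them are not reported here.

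The counts were refitted with edgeR 4.0.16 quasi-likelihood on the library totals. The listed genes were selected for a small p, so the Benjamini-Hochberg adjustment counted 16021 genes, as in the authors' adjustment. That count does not correct the dispersions, which were also estimated from listed genes alone. The SEs and p-values of the refits may therefore be too small, which was not tested. The interaction was adjusted over the genes fitted. Alternatives were TMM, DESeq2 1.42.0 size factors and Wald test, a floor of 5 RPM, at least 2-fold change, a stricter adjusted p (0.01), a fit of all 8 libraries, a replicate block and leaving out each library. TMM and DESeq2 size factors were computed from the fitted genes alone, without the genes left out of the deposited tables. On simulated data the fit of 7526 genes recovered 79.1%, 100% and 100% of changes of 1.5, 2 and 4 times with 3 false calls. The interaction fit over 6582 genes recovered 47.8%, 88.1% and 100% with 10 false calls. Changes were set only in genes with many reads, every gene had the same dispersion, and most genes were unchanged. These rates therefore do not cover genes of few or uneven reads. Chi-square per degree of freedom between the libraries of a group was 12.0 in ischemia and 6.66 in normoxia, above sampling noise, so none was counted as a copy. Promoters are from RefSeq (GRCr8), matched by symbol for 5632 of 7526 listed genes. The sterol response element, TCACNCCAC or TCACNCGAC on either strand, was also searched. It had 0 matches in the 17 promoters found for listed cholesterol genes, so none of these is shown. Other software was R 4.3.3 with limma 3.58.1, and matplotlib 3.10.9, SciPy 1.17.1, pandas 2.3.3 and NumPy 2.4.6 under Python 3.11.15.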

Additional observations from a re-analysis of the deposited data

Results flagged for a closer look

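Alkbh6 was set apart by a difference between the ischemia effects with eugenol and with DMSO of -6.92 (log2), called by the edgeR quasi-likelihood interaction with a Benjamini-Hochberg adjusted p of 0.0122. With DMSO both ischemia libraries held more reads than both normoxia libraries, and with eugenol both held fewer. The largest of its 8 libraries held 91 reads.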

How the results depend on the processing

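With a fold minimum of 2 the calls fell to 2570, of which 1096 were higher and 1474 lower. All other settings gave between 5211 (adjusted p under 0.01) and 7412 calls (edgeR quasi-likelihood refit), with 6548 by DESeq2's Wald test, 7092 with TMM and 6457 with DESeq2 size factors. Library totals in edgeR gave 3594 calls higher and 3818 lower, against 3634 and 3458 with TMM, and 3638 and 2819 with DESeq2 size factors. The majority direction thus changed with the scaling. Both alternatives took their factors from the listed genes alone, so these counts cannot settle that direction. Leaving out 1 library gave 6083 to 7151 calls. The median log2 fold change of listed genes was -0.19 with TMM and -0.053 with DESeq2 size factors. The interaction called 0 genes above the 5 RPM floor, 5 by DESeq2's Wald test, 2 with the replicate block, and 0 to 9 with 1 library left out. Replicate numbers do not pair the samples by any label, deviations of same-numbered libraries had a correlation of -0.064, and the replicate block gave 7278 calls. Of the 275 named genes that were listed, 33 lost a call or turned in a refit. Myh7 turned to 0.0062 with DESeq2 size factors and Tmco3 to -0.15 without ischemia eugenol replicate 2, in a range of -0.15 to 2.96 with 1 library left out. The cause of these changes was not tested. With 2 libraries a group, genes of few reads are the least certain.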

Other observations

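Small classes of RNA were listed beside the coding genes. Both listed mitochondrial ribosomal RNA genes were called higher in ischemia in the authors' deposited table, while all 8 listed mitochondrial protein genes were called lower. Of 5 listed mitochondrial transfer RNA genes 3 were called higher and 1 lower. Of 49 listed long intergenic RNAs 21 were called higher and 17 lower, and all 4 listed small nucleolar RNA genes were called higher. Of all 7526 listed genes 6578 were called, 3134 higher and 3444 lower. A count among listed genes therefore says little about a class.

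RGD1559493, chosen after its values were seen, had 0 reads in both normoxia eugenol libraries and 309 and 261 reads in the ischemia eugenol libraries. Brms1 had 0 and 0 reads in normoxia eugenol and 3 and 50 in ischemia eugenol, so its value rested on 1 library.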
